A study of Mus musculus with 15 samples.

Results

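The genes described here are 42 mouse genes of mitochondrial and peroxisomal fatty acid oxidation and of ketone body metabolism, given as a list of names that was drawn up with earlier results of these data known, although no measured value enters the rule. H3K4me3, a mark of 3 methyl groups on a lysine of the histone H3 tail, was mapped by PAT-ChIP-seq, a chromatin immunoprecipitation for archived tissue, in 4 sections of formalin-fixed, paraffin-embedded (FFPE) liver from each of 15 C57BL/6 females. All 42 genes were found among the 21755 protein-coding genes annotated on chromosomes 1 to 19 and X. The mice came from several litters, were divided into 5 diets of 3 mice at the age of 3 months and were fed for 10 months, and every mouse is labelled as 12 months old. The diets were standard chow ad libitum (SD), caloric restriction (CR), high fat ad libitum (HF), chow made with yellow corn ad libitum (YD) and chow made with purple corn ad libitum (RD). The yellow and purple corn were near-isogenic lines, of which the purple one carries anthocyanins, and each replaced the maize of the standard chow. RD against YD therefore contrasts the pigment. YD against SD contrasts the source of the maize, and RD against SD contrasts both source and pigment. Each mouse gave 1 library, named here by its diet and replicate number, as in YD_3.

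Fatty acids that enter a hepatocyte are bound, activated to acyl-CoA and passed through the carnitine shuttle into mitochondria, where each turn of beta-oxidation shortens the chain by an oxidation, a hydration, a second oxidation and a thiolytic cleavage. Very long and branched chains are shortened first in peroxisomes. The liver is the main site of ketone body synthesis from the acetyl-CoA that results, and PPARA is the nuclear receptor that activates most of these genes in fasting. H3K4me3 marks the starts of genes and is usually found just downstream of active transcription start sites (TSSs).

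The data were 1 list of enriched regions per mouse. A region, called an island by the caller SICER2, was assigned to a gene when it lay within 1 kb of any of its TSSs, and of several such islands the one with the highest score was used. The width of that island and its rank by score within its own list (1 is the highest) were the measurements. The lists held 7825 to 33752 islands and rested on 5589269 to 15449854 filtered reads. They differed between diets and also within them. The share of all protein-coding genes with an island was 24.3%, 26.5% and 17.5% in YD and 54.6%, 47.6% and 51.5% in HF. The median over the 15 lists was 35.5%. In YD_3, the lowest, the median island at a gene was 1200 bp wide. In these shares diet and library quality cannot be told apart. The deposited library names take the form PATChIP in CR_1, CR_2, HF_2, HF_3 and RD_1 and the form ChIP in the other 10. A gene without an island is one at which no region passed the caller's threshold, not one shown to lack the mark. Islands were called in whole liver, so fewer cells of a type and less H3K4me3 per cell cannot be told apart. Of 8 hepatocyte marker genes 4 to 8 had an island in each library. Markers of adipocytes, lymphocytes and neurons had none in any library, whereas those of Kupffer cells averaged 1.33 of 4 in HF and 0 in every other diet, and those of endothelium averaged 3 of 4 in HF, with 1.33 for SD, 1 for CR, 0.333 for RD and 0 for YD. Stellate cell markers averaged 1.67 of 4 in HF, 0.333 in SD and in CR and 0 in both corn diets. Cholangiocyte markers averaged at most 0.667 of 3 in any diet, and of 3 skeletal muscle markers only Actn3 was listed, in 10 libraries.

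The fatty acid oxidation genes were widely marked. An island was found in all 15 lists at 14 of the 42 genes (33.3%) and in at least 12 lists at 34 (81.0%), beside 9.46% and 26.2% of all protein-coding genes. Every one of the 42 had an island in at least 1 list, while 40.0% of protein-coding genes had none. The median gene of the group was marked in 14 lists and the median protein-coding gene in 3. Among genes marked in all 15 lists, the median width was 3600 bp for the 14 fatty acid oxidation genes and 2400 bp for all 2059, and the median rank was 871 against 1752. The share of these genes with an island exceeded that of protein-coding genes in 15 of 15 libraries. Their median width exceeded that of protein-coding genes in 14 of 15 libraries, the exception being YD_3, where both were 1200 bp. Their median rank was nearer the top in 13 of 15, the exceptions being CR_1 and YD_3.

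**Figure D1:**
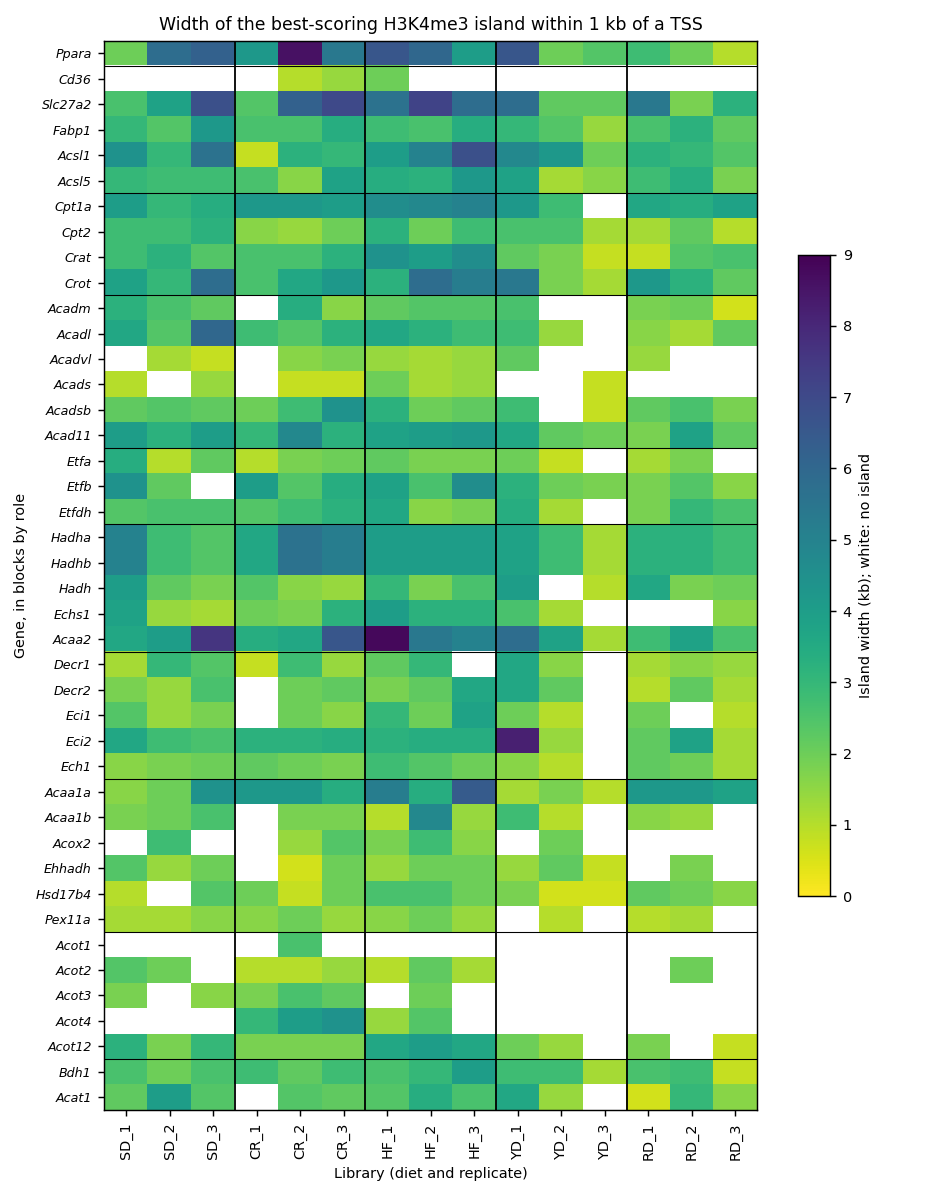
Width in kb (colour) of the best-scoring H3K4me3 island within 1 kb of a TSS for each of the 42 genes (rows, in blocks by role) in each of the 15 libraries (columns, by diet), with white where no island was listed. The thioesterase block and the column YD_3, where 20 of 42 genes had an island, hold most of the white cells.

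Ppara, which encodes the nuclear receptor, carried one of the widest islands of the group. It measured 2.0, 5.8 and 6.2 kb in SD, 4.2, 8.6 and 5.4 kb in CR, 6.6, 6.0 and 4.0 kb in HF, 6.6, 2.0 and 2.4 kb in YD and 2.8, 2.0 and 1.0 kb in RD. The RD mice sat at the low end, overlapping SD and YD but below every CR and HF mouse. These widths, like those in kb given below for other genes, are not corrected for differences in island width between libraries. The share of all genes whose mice separate by diet in this way is not given here. Its rank ran from 153 in CR_2 to 1594 in SD_1, with a median of 399. The median width of 4200 bp was above that of 92.5% of the 2059 genes marked in every list.

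The uptake, binding and activation genes were found in 63 of 75 gene and library combinations. Slc27a2, a very long-chain acyl-CoA synthetase and fatty acid transporter, had the widest median of all 42 genes, 5400 bp, wider than 97.0% of the genes marked in every list. Its widths were 2.6, 3.8 and 6.8 kb in SD, 2.4, 6.2 and 7.0 kb in CR, 5.6, 7.2 and 5.8 kb in HF, 5.8, 2.2 and 2.2 kb in YD and 5.4, 1.8 and 3.2 kb in RD. The spread within SD was as large as that between the diets. Its islands began downstream of the first base of the gene in GENCODE (median upstream reach -594 bp), and the RefSeq start used below lies 617 bp from that base. Fabp1, the fatty acid binding protein of liver cytosol, was marked in every list with widths of 1400 to 4200 bp and ranks of 390 to 6512. Acsl1 and Acsl5, which activate long-chain fatty acids, were also marked in every list, with median widths of 3200 and 2800 bp. Cd36, a fatty acid translocase of the plasma membrane, was the exception. It had an island in CR_2, CR_3 and HF_1 alone, of 1.0, 1.4 and 2.0 kb and at ranks of 9164 to 10490, and all 3 lay about an alternative TSS, far downstream of the main one (median upstream reach -39147 bp).

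Genes of the carnitine steps were found in 59 of 60 combinations, the highest share of any role with more than 1 gene (98.3%). Cpt1a, which forms acylcarnitine at the outer mitochondrial membrane and is the regulated entry step, ranked from 108 to 890 in the 14 lists that held it. Its widths were 4.0, 3.0 and 3.4 kb in SD, 4.2, 4.2 and 4.0 kb in CR, 4.6, 4.8 and 5.0 kb in HF, 4.2 and 2.8 kb in YD_1 and YD_2 and 3.6, 3.4 and 3.8 kb in RD, and YD_3 had no island there. The 3 HF values were the highest of all, without overlap with another diet, on a scale not corrected for the wider islands of the HF libraries. In the width test over the 5709 genes in at least 12 lists, which centres each library, Cpt1a in HF minus SD was 0.16 on the log2 scale (SE 0.30, adjusted p = 0.996 by limma). Cpt2, which reforms acyl-CoA in the matrix, measured 2.8, 2.8 and 3.2 kb in SD, 1.6, 1.4 and 2.0 kb in CR, 3.2, 2.0 and 2.8 kb in HF, 2.6, 2.6 and 1.2 kb in YD and 1.2, 2.2 and 1.0 kb in RD. The CR and RD mice were all below the SD mice on this uncorrected scale, with no share of all genes beside it. Crat and Crot, the carnitine acyltransferases for short chains and for peroxisomal products, were in every list, with median widths of 2600 and 3600 bp. The Crat island was in every list also the island of Ptpa, whose TSS lies close by.

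Of the 6 acyl-CoA dehydrogenase genes, whose enzymes carry out the first oxidation, only Acad11 was marked in every list, at 1.8 to 4.8 kb. Acadl (long chain) was missing in YD_3 and Acadsb (short and branched chain) in YD_2. Acadm (medium chain) was missing in CR_1, YD_2 and YD_3 and ranked from 3412 to 7971 where it was listed. Acadvl (very long chain) was missing in SD_1, CR_1, YD_2, YD_3, RD_2 and RD_3. Acads (short chain) had the narrowest median of the 42, 1100 bp. Its island measured 1.0 and 1.4 kb in SD_1 and SD_3, 0.8 kb in CR_2 and in CR_3, 2.0, 1.2 and 1.4 kb in HF and 0.8 kb in YD_3, and none was listed in the 3 RD mice. As a role these genes were found in every combination of HF, in 88.9% of those of SD and 83.3% of those of CR, with 72.2% for RD and 55.6% for YD. The mean shares of all protein-coding genes were 51.2%, 39.6%, 43.4%, 31.2% and 22.8% in the same order, also highest in HF and lowest in YD. A difference of this role beyond those shares was not tested. The Acadsb island was in all 14 lists also that of Ikzf5.

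Genes of electron transfer, which pass the electrons of these dehydrogenases to the respiratory chain, were found in 41 of 45 combinations. Etfa was missing in YD_3 and RD_3, Etfb in SD_3 and Etfdh in YD_3. Hadha and Hadhb, which encode both subunits of the mitochondrial trifunctional protein for long chains, shared a single island in 15 of 15 lists. It ranked between 183 and 589 in 13 lists, 769 in RD_2 and 1269 in YD_3, and was 1200 to 5600 bp wide, so the pair shares 1 measurement, which the counts of genes given here hold for both. Acaa2, the mitochondrial thiolase, measured 3.6, 4.0 and 7.6 kb in SD, 3.4, 3.6 and 6.6 kb in CR, 8.8, 5.4 and 5.0 kb in HF, 5.8, 3.8 and 1.2 kb in YD and 2.8, 3.8 and 2.6 kb in RD, with ranks of 158 to 2819. The 8.8 kb in HF_1 was the widest island of any of the 42 genes. Hadh, the hydroxyacyl-CoA dehydrogenase for shorter chains, was missing in YD_2, and Echs1, the short-chain enoyl-CoA hydratase, in YD_3, RD_1 and RD_2.

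The 5 genes for unsaturated fatty acids, reductases and isomerases that move or remove double bonds, were each marked in 12 to 14 lists. All 5 were missing in YD_3. Beyond that mouse Decr1 was missing in HF_3, Decr2 in CR_1 and Eci1 in CR_1 and RD_2, and Eci2 and Ech1 in no other list. Among the peroxisomal genes, Acaa1a, a peroxisomal thiolase, was in every list and measured 1.6, 2.0 and 4.4 kb in SD, 4.2, 4.2 and 3.4 kb in CR, 5.2, 3.4 and 6.4 kb in HF, 1.2, 1.8 and 1.0 kb in YD and 4.2, 4.2 and 3.8 kb in RD. The RD and YD mice did not overlap on this uncorrected scale, with no share of all genes beside it. Its island was in every list also that of Myd88, a neighbouring gene of innate immune signalling. Its paralog Acaa1b was missing in CR_1, YD_3 and RD_3, and at ranks of 1398 to 11533 lay lower where it was listed. Ehhadh, the peroxisomal bifunctional enzyme, was missing in CR_1, RD_1 and RD_3, Hsd17b4, its counterpart for branched chains, in SD_2, and Pex11a, which promotes peroxisome division, in YD_1, YD_3 and RD_3. Acox2, the branched-chain acyl-CoA oxidase, was listed in SD_2, CR_2, CR_3, HF_1, HF_2, HF_3 and YD_2 only, at 1.4 to 2.8 kb.

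For ketone bodies, Bdh1, which reduces acetoacetate to beta-hydroxybutyrate, was marked in every list. Its widths were 2.6, 2.0 and 2.6 kb in SD, 2.8, 2.2 and 2.8 kb in CR, 2.6, 3.0 and 4.0 kb in HF, 2.8, 2.8 and 1.2 kb in YD and 2.6, 2.8 and 0.8 kb in RD. Its rank varied from 890 in YD_2 to 19757 in RD_2. Acat1, the mitochondrial acetoacetyl-CoA thiolase, was missing in CR_1 and YD_3. The thioesterases, which split acyl-CoA into fatty acid and free CoA, were the least marked role, with 34 of 75 combinations. Acot12, a cytosolic acetyl-CoA hydrolase on chromosome 13, was marked in 13 lists and missing in YD_3 and RD_2. The other 4, Acot1 to Acot4, lie in 1 cluster on chromosome 12 and are described last.

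The islands lay mainly inside the genes. Over the 34 genes marked in at least 12 lists, the island reached further downstream than upstream of the main TSS at 31 (91.2%), beside 78.3% of 5709 protein-coding genes marked as often. The median reach was 362.5 bp upstream and 1755.5 bp downstream, beside 595 and 1415 bp. The islands of Etfb, Etfdh, Echs1 and Pex11a were also those of Gm45233, 4930579G24Rik, Paox and Wdr93, in 14, 14, 12 and 12 lists, and a shared island cannot be assigned to either gene of a pair.

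**Figure D2:**
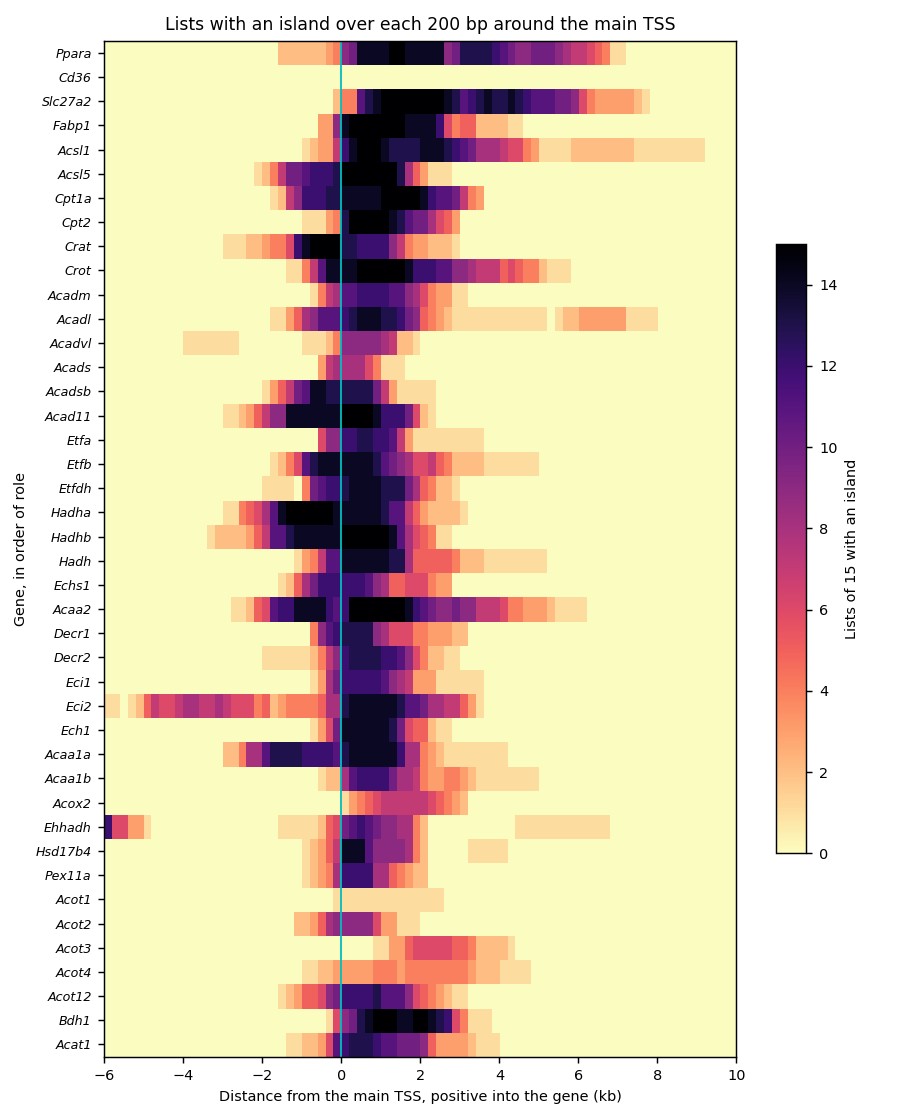
Number of the 15 lists (colour) with any island over each 200 bp step from 6 kb upstream to 10 kb downstream of the main GENCODE TSS (line at 0), for each of the 42 genes in order of role. Ppara, Slc27a2 and Acsl1 are covered mostly downstream, Hadha and Hadhb on both sides, Cd36 not at all and the cluster thioesterases in few lists.

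Promoter sequence differed among these genes. RefSeq promoters (GRCm38.p6, from 250 bases before to 50 after the start) matched 37 of the 42 names, and Crat, Acaa2, Decr1, Hsd17b4 and Acat1 were not matched. The median ratio of observed to expected CpG was 0.719 for the 12 matched genes marked in 15 lists and 0.635 for 17 in 12 to 14 lists. It was 0.506 for 3 in 8 to 11 lists and 0.216 for 5 in at most 7 lists. Over all promoters it was 0.816 for 1672 marked in 15 lists, 0.817 for 2865 in 12 to 14 lists and 0.782 for 2364 in 8 to 11. It was 0.603 for 3262 in 1 to 7 lists and 0.245 for 6269 in none. The value of 0.216 is that of Cd36, whose matched RefSeq start lies 52851 bp from its main TSS. The others in at most 7 lists were 0.482 (Acot4), 0.450 (Acot1), 0.163 (Acox2) and 0.128 (Acot3). The GC box GGGCGG, searched on both strands, was in 70.3% of the 37 promoters and in 48.7% of all 16432, but in 64.4% of promoters marked in 15 lists and 67.8% of those in 12 to 14. The letters TATAAA were in 5.41% against 12.9% (6.25% of promoters marked in 12 to 14 lists), CCAAT in 45.9% against 38.7% and AGGTCA, the core motif of nuclear receptors, in 27.0% against 14%. An exact direct repeat of AGGTCA with 1 base between the copies was in none of the 37 and in 0.0609% of all promoters. A CpG-poor promoter did not preclude an island in every list, as the bases before the main TSS of Fabp1 show beside those of Cpt2 and the 85 bases between the starts of Hadha and Hadhb. Each is read 5′ to 3′ on the strand given, with CpG in capitals.
Cpt2 (chr4:107923611-107923860, - strand): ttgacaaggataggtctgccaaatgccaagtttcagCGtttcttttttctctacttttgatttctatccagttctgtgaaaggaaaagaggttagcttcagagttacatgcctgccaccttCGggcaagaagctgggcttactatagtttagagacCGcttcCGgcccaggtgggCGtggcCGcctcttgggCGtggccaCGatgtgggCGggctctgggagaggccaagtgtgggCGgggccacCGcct
Fabp1 (chr6:71199577-71199826, + strand): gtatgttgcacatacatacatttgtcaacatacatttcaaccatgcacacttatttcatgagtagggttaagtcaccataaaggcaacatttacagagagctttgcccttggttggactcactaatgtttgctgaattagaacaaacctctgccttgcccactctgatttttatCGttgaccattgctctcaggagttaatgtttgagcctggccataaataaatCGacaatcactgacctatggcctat
Hadha to Hadhb (chr5:30155163-30155247, + strand): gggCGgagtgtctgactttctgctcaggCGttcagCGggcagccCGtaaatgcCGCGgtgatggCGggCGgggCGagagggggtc
The Cpt2 stretch holds 11 CpG in 250 bases, that of Fabp1 holds 2, and the stretch between Hadha and Hadhb holds 9 in 85 bases, and all 4 genes had an island in every list.

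By diet, the number of the 42 genes with an island was 37, 36 and 36 in SD, 31, 42 and 41 in CR, 40, 40 and 37 in HF, 34, 32 and 20 in YD and 33, 32 and 30 in RD. No corn-fed mouse reached the lowest SD or HF mouse, while CR_1 lay among the corn diets. The mean per mouse (± standard deviation, n = 3) was 36.3 ± 0.577 genes on standard chow, 38 ± 6.08 under caloric restriction, 39 ± 1.73 on high fat, 28.7 ± 7.57 on yellow corn and 31.7 ± 1.53 on purple corn. As shares these were 86.5%, 90.5%, 92.9%, 68.3% and 75.4%, beside 39.6%, 43.4%, 51.2%, 22.8% and 31.2% of all protein-coding genes, which followed the same order of diets. The difference of the corn diets from the mean of the other 3 diets was -7.61 genes. The YD mean rested on YD_3, without which the difference from SD was -3.33 and not -7.67 genes, and the difference of RD from YD turned from 3 to -1.33. The CR mean rested on CR_1, without which CR exceeded SD by 5.17 and not 1.67 genes, while without CR_2 or CR_3 the difference was -0.333 or 0.167. Within the 10 libraries of the name form ChIP, the counts were 37, 36 and 36 in SD, 41 in CR, 40 in HF, 34, 32 and 20 in YD and 32 and 30 in RD. Within the form PATChIP they were 31 and 42 in CR, 40 and 37 in HF and 33 in RD, which overlap. All SD and YD libraries are of the form ChIP, so form and diet are partly confounded. The part of the name form in these counts was not tested. In all 3 mice an island was found at 32 genes under SD, at 31 under CR, at 37 under HF, at 17 under YD and at 27 under RD. The shares of all protein-coding genes were 29.1%, 33.1%, 45.6%, 11.9% and 20.4% in the same order, also highest in HF and lowest in YD.

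**Figure D3:**
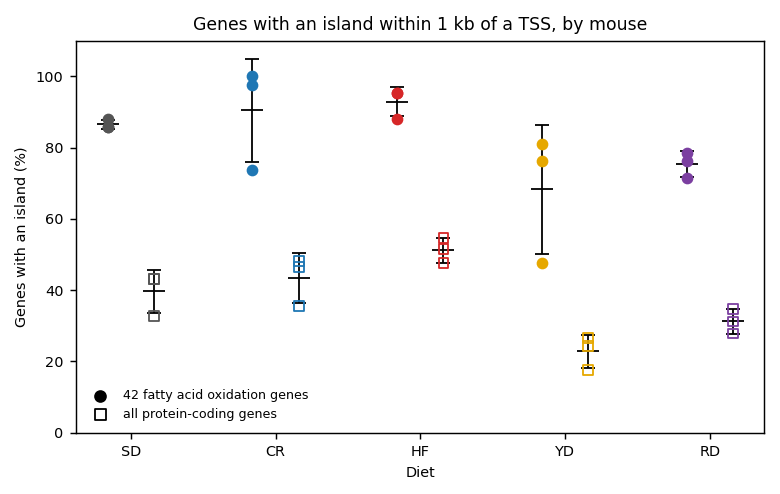
Share of genes with an island within 1 kb of a TSS (percent) in each mouse, by diet, for the 42 fatty acid oxidation genes (filled circles) and all protein-coding genes (open squares), with the mean and standard deviation of 3 mice. In every mouse the filled circle lies above the open square, and both are lowest in YD, where YD_3 stands at 47.6%.

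Whether single genes differed between diets was asked in 3 ways. A gene was counted as gained when an island was listed in at least 2 of 3 mice on the first diet but in 0 of 3 on the second, and as lost in the reverse case. This is a rule and not a test, since the smallest two-sided exact p for 3 mice against 3 is 0.1. Against SD, CR gained 2 of 42 genes (Cd36 and Acot4, 4.76%) beside 3.33% of all genes with an island in either diet, and lost 0 beside 0.625%. HF gained 1 of 41 (Acot4) beside 8.15% and lost 0 beside 0.128%. YD gained 0 beside 0.0744% and lost 2 of 39 (Acot2 and Acot3, 5.13%) beside 19.1%. RD gained 0 beside 0.434% and lost 2 of 39 (Acads and Acot3) beside 7.7%. Between RD and YD, 0 of 38 genes were gained beside 8.65% and 0 lost beside 0.553%. These shares rest on at most 2 genes each, and their difference from those of all genes was not tested. With an island required in 3 of 3 mice against 0, CR gained 1 (Acot4) beside 0.582% of all genes, HF gained 0 beside 3.17%, YD lost 0 beside 7.08% and RD lost 0 beside 2.07%. The markers of Kupffer cells, endothelium and stellate cells, listed most often in HF, moved with the HF counts, and their part in them was not tested. The 5 genes counted were each marked in at most 9 lists. The 42 genes are not the whole pathway, and 41 further genes of it were counted by the same rule. Among these RD gained 5 of 35 against YD (Acsl3, Acsl4, Acad9, Mlycd and Oxct1) and lost 0. Against SD, YD lost 7 of 37 and gained 0, and RD lost 2 of 36 and gained 0. CR and HF each gained 2 of 38 and lost 0. The shares of all genes are those above.

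The second way ordered all protein-coding genes by the score of their best island in each library, from 0 to 100 for the highest, and tested the percentile with limma over 11200 genes marked in at least 3 lists, 41 of the 42 among them (all but Acot1). Genes without an island shared 1 percentile in a library, between 22.7 in HF_1 and 41.2 in YD_3. In CR against SD, 1 of the 41 had an adjusted p under 0.05 (Acot4, 0.0499 with the Benjamini-Hochberg method), beside 0.125% of all genes called higher and 0.179% in either direction. Acot4 was in 5 lists, 3 of them CR, so it entered the fit through the group in which it was high, and without the filter its adjusted p was 0.355. Its value is therefore given as a description. No fatty acid oxidation gene was called in HF (0.0625% of all genes called), YD (0%), RD (0%) or RD against YD (0%). In the corn diets against SD, CR and HF together, 3.08% of all genes were called, nearly all lower (3.04%), and 0 of the 41. Of 38 further pathway genes tested, outside the 42, 2 were called lower there (Acox3 and Acsl3). Acox3 had 0 islands in YD and 0 in RD, so it too passed the filter through the diets in which it was high. Acsl3 had an island in all 3 RD mice and in 0 YD mice, so it was missing in YD alone. At an unadjusted p under 0.05 the counts of the 41 were 5 (12.2%) in CR and 2 (4.88%) in HF, then 4 (9.76%) in YD and 3 (7.32%) in RD, each against SD, with 3 (7.32%) for RD against YD and 4 (9.76%) for the corn diets. The shares of all 11200 genes were 6%, 6.12%, 12.4%, 7.56%, 9.12% and 21.1% in the same order. The median difference of the corn diets was -1.34 percentile points over the 41 genes and -7.18 over all 11200.

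Examples of the larger differences among the other genes, none past the threshold, are given as values. The percentile of Etfb in CR minus that in SD was 30.4 points (SE 9.63, adjusted p = 0.572 by limma), and in YD minus SD it was 28.8 points (adjusted p = 0.195 by limma), and the SD mean of 63.5 includes SD_3, which had no island there. Ehhadh was at a mean percentile of 47.4 in RD and 86.2 in YD, a difference of -38.8 (SE 12.9, adjusted p = 0.288 by limma). Echs1 was at 50.5 in RD and 84.1 in SD (SE 15.03 of the difference, adjusted p = 0.647 by limma). Acaa1a was at 84.2 in SD, 94.0 in CR, 96.3 in HF and 97.4 in RD. A median SE of 10.3 points over the 41 genes limits what could be called.

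**Figure D4:**
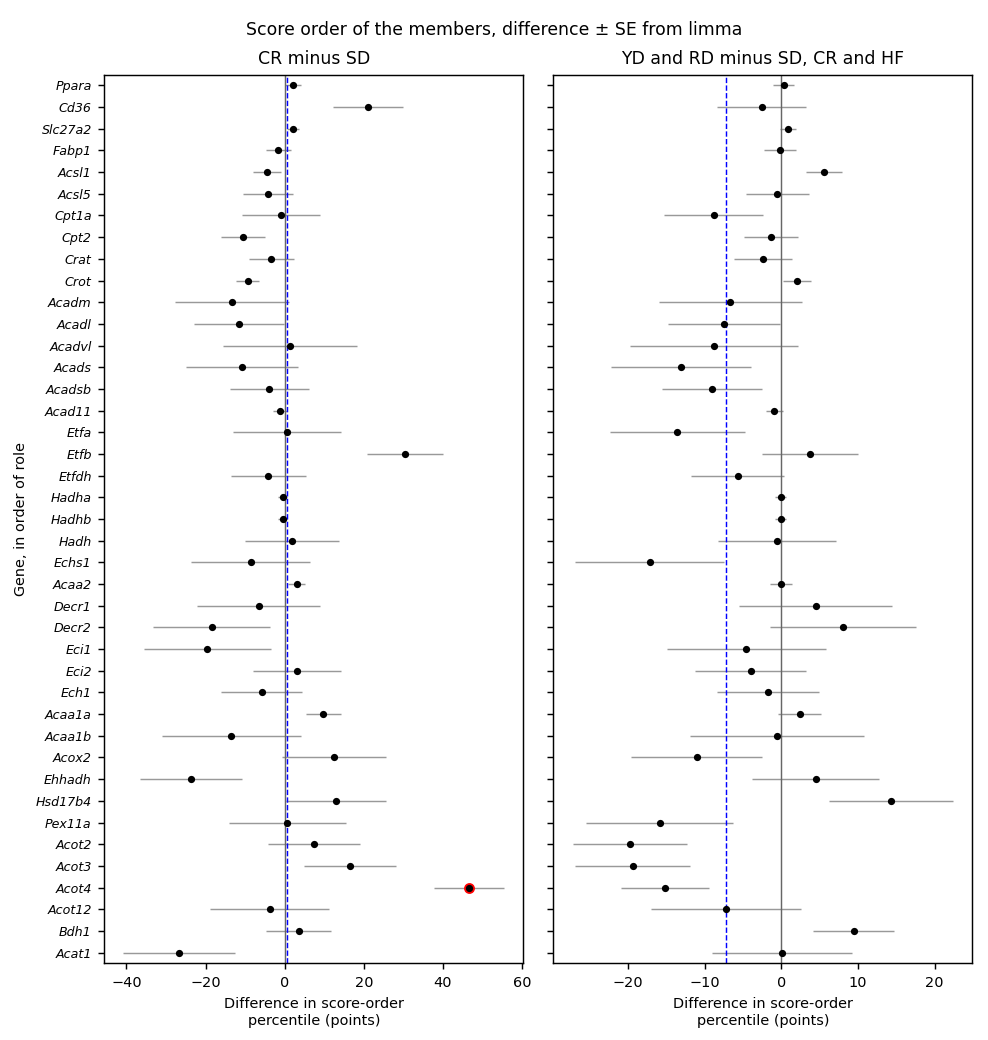
Difference in score-order percentile (points on the x axis, with bars of 1 SE from limma) for 41 of the 42 genes in order of role, in CR against SD (left) and in the corn diets against SD, CR and HF (right). The dashed line is the median of all 11200 genes, and the red dot marks Acot4, 46.6 points higher in CR, which entered the fit through its CR islands.

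The third way compared widths, as log2 of the width centred on the median of each library, over the 2059 genes marked in all 15 lists, 14 of the 42 among them. None of the 14 was called by limma in any of the 6 comparisons, where 0% (CR), 0% (HF), 0.0971% (YD), 0.0486% (RD), 0% (RD against YD) and 0.194% (corn diets) of all genes were. At an unadjusted p under 0.05 the counts of the 14 were 2, 0, 0, 2, 3 and 0, beside 4.13%, 2.91%, 8.55%, 5.59%, 8.89% and 10.6% of all 2059 genes. The centred log2 width of Cpt2 in CR minus that in SD was -0.97 (SE 0.29, adjusted p = 0.837 by limma), and in RD minus SD it was -0.77 (SE 0.29, adjusted p = 0.730 by limma). For Acaa1a the difference of RD minus YD was 1.40 (SE 0.39, adjusted p = 0.279 by limma). For Acsl1 that of CR minus SD was -1.23 (SE 0.40, adjusted p = 0.998 by limma), where CR_1 measured 0.8 kb and the other CR mice 3.2 and 3.0 kb.

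The 4 cluster thioesterases gave 5 of the 7 gains and losses counted above. ACOT1 is cytosolic, ACOT2 mitochondrial and ACOT3 and ACOT4 peroxisomal. Their genes lie in a row on the plus strand of chromosome 12, with main TSSs at 83987861 (Acot2), 84009490 (Acot1), 84038379 (Acot4) and 84052151 (Acot3) in mm10. The stretches before these starts are shown because those counts fall here and because the genes are paralogs. Capitals mark CpG, and all are on the plus strand.
Acot2 (chr12:83987611-83987860, + strand): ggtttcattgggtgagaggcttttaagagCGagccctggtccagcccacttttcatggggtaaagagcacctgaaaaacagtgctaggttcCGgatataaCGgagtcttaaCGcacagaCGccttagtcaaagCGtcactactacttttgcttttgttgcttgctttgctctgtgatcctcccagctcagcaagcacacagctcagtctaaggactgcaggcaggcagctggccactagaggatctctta
Acot1 (chr12:84009240-84009489, + strand): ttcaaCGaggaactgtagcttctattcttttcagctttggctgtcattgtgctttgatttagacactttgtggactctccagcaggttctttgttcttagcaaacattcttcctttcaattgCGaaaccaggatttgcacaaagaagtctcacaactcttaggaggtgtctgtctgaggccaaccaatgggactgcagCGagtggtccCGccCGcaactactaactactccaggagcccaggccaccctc
Acot4 (chr12:84038129-84038378, + strand): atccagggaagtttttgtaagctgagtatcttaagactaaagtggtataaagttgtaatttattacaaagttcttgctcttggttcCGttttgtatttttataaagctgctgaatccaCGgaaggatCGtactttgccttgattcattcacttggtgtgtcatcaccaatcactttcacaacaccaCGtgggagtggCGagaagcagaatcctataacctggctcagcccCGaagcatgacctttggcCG
Acot3 (chr12:84051901-84052150, + strand): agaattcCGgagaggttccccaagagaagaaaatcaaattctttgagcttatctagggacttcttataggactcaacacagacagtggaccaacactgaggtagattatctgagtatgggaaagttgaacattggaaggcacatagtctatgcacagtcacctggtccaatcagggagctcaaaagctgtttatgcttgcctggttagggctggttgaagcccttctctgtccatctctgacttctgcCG
These stretches hold 6, 5, 7 and 2 CpG. That of Acot4 holds TATAAA 3 times and AGGTCA once, counted on both strands, and that of Acot3 is overlapped by annotated transcripts of 4732463B04Rik, Gm49366 and Acot3 itself. In global alignments of the RefSeq promoters, Acot1 matched Acot2 at 50.3%, Acot3 at 49.7% and Acot4 at 52% of aligned columns, and Acot3 matched Acot4 at 47.9%.

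Acot4 had no island in the 3 SD mice and islands of 3.0, 4.0 and 4.4 kb in the 3 CR mice, of 1.4 and 2.4 kb in HF_1 and HF_2, and none in HF_3 or in any corn-fed mouse. Its percentile was 28.4, 28.5 and 33.6 in SD, and 76.4, 83.4 and 70.6 in CR. The SD values are those shared by all genes without an island, so their spread follows from the number of such genes and not from reads at Acot4. The groups did not overlap, and the difference was 46.6 points (SE 8.89, higher in 3 of 3 CR mice). Its adjusted p of 0.0499 by limma supports nothing by itself, since the filter let Acot4 in through CR. Fisher's exact test of presence, 3 of 3 against 0 of 3, gave p = 0.1, the smallest this design allows. The p also sits at the threshold. Over 23 other settings the difference was above 0 in 23, which adds no support, since Acot4 had no island in any SD mouse. The difference was called in 5 of these settings, with adjusted p-values from 0.0240 to 0.355 by limma. Leaving out any SD mouse lost it (adjusted p = 0.120, 0.0994 and 0.0828 by limma), as did leaving out CR_2 (0.144) or CR_3 (0.0582) and leaving out HF_1 or any mouse of YD or RD (0.0676 to 0.105), whereas without CR_1 it was 0.0408. With the form of the library name as a term the adjusted p was 0.279 by limma, and CR_1 and CR_2 are of the form PATChIP while all SD libraries are of the form ChIP, and the part of the name form in the result was not tested further. In CR_1 the island began 1622 bp downstream of the main TSS, near a minor transcript, and in 4 lists the Acot4 island was also that of Gm49366.

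Acot3 had islands of 1.8 and 1.6 kb in SD_1 and SD_3, of 1.8, 2.6 and 2.2 kb in CR and of 2.0 kb in HF_2, and none in HF_1, HF_3 or any corn-fed mouse. They began 850 to 1850 bp downstream of its main TSS. Acot2 measured 2.4 and 2.0 kb in SD_1 and SD_2, 1.0, 1.0 and 1.4 kb in CR, 1.0, 2.2 and 1.2 kb in HF and 2.0 kb in RD_2, and had no island in SD_3, YD or the other RD mice. Acot1, the least marked of the 42 genes, had 1 island, of 2.6 kb in CR_2. In the corn diets against the other 3, Acot2, Acot3 and Acot4 differed by -19.7 (SE 7.48), -19.4 (SE 7.49) and -15.2 points (SE 5.74), with adjusted p-values of 0.148, 0.156 and 0.147 by limma. With genes lacking an island set to 0 instead of their shared percentile, a setting chosen after the data were seen, all 3 were called lower in the corn diets (adjusted p = 0.0283, 0.0212 and 0.0139 by limma), while 2014 of 11200 genes were called in either direction under that setting. All 3 passed the filter through the diets in which they were high. Counting also Acot5 and Acot6, further genes of the cluster named after their values were seen, the genes with an island out of 6 were 2, 1 and 1 in SD, 3, 5 and 3 in CR, 3, 3 and 2 in HF, 0, 0 and 0 in YD and 0, 1 and 0 in RD. The CR and HF mice lay at or above the highest SD mouse, and the corn-fed mice at or below the lowest. The shares of all protein-coding genes were 43.1%, 43.0% and 32.7% in SD, 35.5%, 46.5% and 48.2% in CR and 54.6%, 47.6% and 51.5% in HF. They were 24.3%, 26.5% and 17.5% in YD and 31.2%, 34.7% and 27.8% in RD. There too HF lay above and YD below every SD mouse, while CR and RD overlapped SD. A difference of the cluster beyond these shares was not tested.

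**Figure D5:**
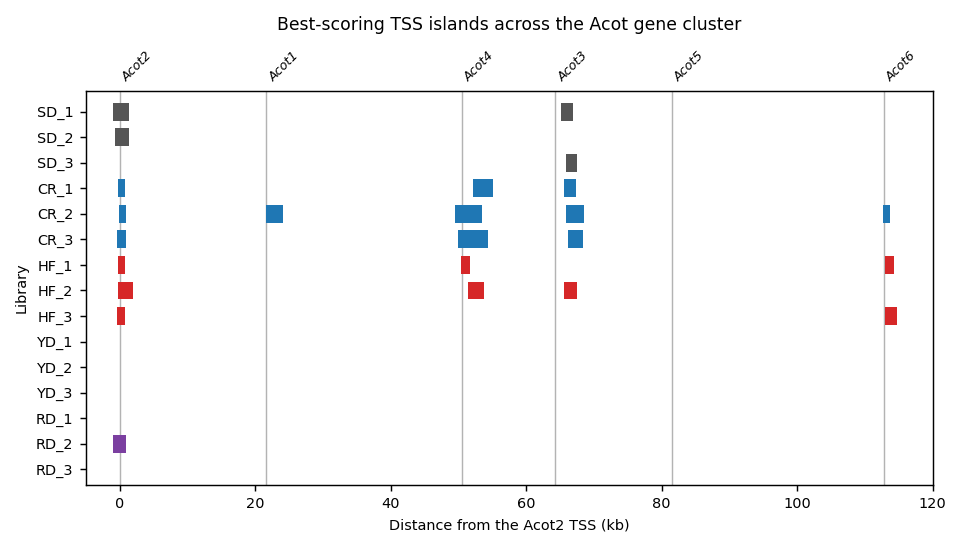
Best-scoring TSS islands (bars, to scale) of the Acot genes along the chromosome 12 cluster, as distance in kb from the Acot2 TSS, in each of the 15 libraries (rows). Vertical lines mark the main TSSs, and the Acot4 position is filled in all 3 CR mice, 2 HF mice and no SD, YD or RD mouse.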

How the data were processed

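Islands were called by the authors in each library. Per the study's methods, single reads of 50 bp were aligned to mm10 with BWA, filtered (unmapped, low mapping quality and duplicate reads removed, chromosomes 1 to 19 and X kept) and passed to SICER2 (window 200 bp, gap 400 bp, fragment size 200 bp). BWA, SAMtools and SICER are named in the submitters' processing notes. The score deposited by the authors is a summed log-probability of window counts and depends on depth, and therefore served only to order islands within a list. Reads per library were recovered from the scores of islands of 1 window, assuming an effective genome fraction of 0.74, and lay within 0.000704 of a whole number. Depth behind single islands was not used here, so errors are those between mice. Replicate animals are those the labels number 1 to 3 in each diet. No pair of lists shared over 2.79% of identical islands.

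TSSs were those of 139486 GENCODE M21 transcripts on chromosomes 1 to 19 and X. For each gene the best-scoring island within 1 kb of any TSS was used. Percentiles and centred log2 widths were tested with limma 3.58.1 (R 4.3.3), with all 15 libraries in the fit, no covariate and Benjamini-Hochberg adjustment over all genes tested at 0.05, in 6 comparisons that share control mice. Other steps used Python 3.11.15 (pandas 2.3.3, numpy 2.4.6, matplotlib 3.10.9, scipy 1.17.1). The fits were also run on simulated scores and widths with independent noise, in which only YD was shifted and islands were dropped at random. That run does not cover islands missing because of a low score, and no result here rests on it. All 42 genes were accounted for by their number of lists. Values in every list, as presence or width, were given for genes in fewer than 15 lists, the 6 widest and 3 narrowest medians, genes called, and Ppara, Cpt1a, Cpt2 and Bdh1. The genes and lists were chosen with earlier results of these data known. Other settings were TSSs inside an island or within 3 kb, equal list lengths (7825), islands above the median score, 3 of 3 mice, normal scores, no filter on genes, summed or uncentred widths, genes in at least 12 lists, replicate number or name form as a term, each mouse left out and, added later, genes without an island set to 0. Reads, signal tracks and expression were not analysed here.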

Additional observations from a re-analysis of the deposited data

How the results depend on the processing

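The number of fatty acid oxidation genes with an island moved by more than the spread between mice in 4 cases. With the TSS inside the island, HF exceeded SD by 5.33 genes and RD differed from SD by -6.33. RD differed from SD by -7 with equal list lengths and by -7 with islands above the median score. With each mouse left out in turn, the difference from SD ranged from -0.333 to 5.17 genes in CR, 2.17 to 3.67 in HF, -10.3 to -3.33 in YD and -5.33 to -3.83 in RD, from -1.33 to 5.67 between RD and YD, and from -8.94 to -5.44 for the corn diets. With islands above the median score CR differed from SD by -0.333, and with equal list lengths RD minus YD turned from 3 to -2. With 3 of 3 mice required, CR gained 1 gene, HF gained 0, and YD and RD lost 0. With the TSS inside the island CR gained 1, YD lost 1, RD gained 1 and lost 3 and RD lost 1 against YD. With equal list lengths CR gained 1, HF gained 0, YD lost 1, RD lost 3 and RD lost 2 against YD. For the settings of TSS inside the island and equal list lengths, no share of all genes is given beside these counts. They therefore show only how the counts moved, and are not a result about these genes.

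In the score order test, 0 genes were called in CR with TSSs within 3 kb, equal list lengths, normal scores, no filter on genes, the replicate block or the name form as a term, and 0 to 1 with a mouse left out. Without a filter on genes 2 were called in HF and 4 in YD, where 9294 and 9564 of all 21755 genes were called. The corn diets gave 3 calls (Acot2, Acot3 and Acot4) with genes lacking an island set to 0, and 0 to 1 with a mouse left out (Acot3 without SD_2 and Acot2 without SD_3, where 330 and 616 of all 11200 genes were called). The width test gave 2 calls in the corn diets without centring (Ppara and Crat), where 457 of all 2059 genes were called, and 0 in every comparison under each other setting. The causes were not tested.

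The replicate numbers name different animals. Deviations of same-numbered mice correlated at a mean of 0.00304 over 30 pairs, with 1 pair over 0.1 (0.142). For mice of different numbers the mean was -0.00162 over 60 pairs. Whether mice of the same number share a batch or litter was not tested. With the replicate block the adjusted p of Acot4 in CR was 0.104 by limma, and 0 genes of the group were called there.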
